A study of Mus musculus with 4 samples.

Results

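The genes of 10 secreted matrix proteins of fibroblasts that are not collagens were followed: fibronectin (Fn1), the small leucine-rich proteoglycans decorin (Dcn), biglycan (Bgn), fibromodulin (Fmod) and lumican (Lum), the elastic fibre proteins elastin (Eln) and fibrillin-1 (Fbn1), and the matricellular proteins periostin (Postn), tenascin-C (Tnc) and osteonectin (Sparc). The count tables list 55536 genes. The 10 were found by pairing the tables' Ensembl gene IDs with mouse symbols, and all 10 have reads in each of the 4 libraries. The cells are primary ear fibroblasts of C57BL/6 mice. Every culture received KN93, which blocks calmodulin-dependent kinase II and served here to synchronise cycling, for 48 hours, and was then transfected for 24 hours. The states compared, AF357425-High and AF357425-Low, differ in the small nucleolar RNA AF357425, a C/D box species from the Dlk1-Dio3 locus. The sample labels call them overexpression and inhibition, whereas the treatment protocol names gapmers against AF357425 and a scrambled control, and the labels do not resolve the difference. Each state was sequenced once as whole-cell RNA and once as RNA pulled down with an antibody against fibrillarin, the methyltransferase of C/D box particles. Ribosomal RNA depletion is stated for the pulldowns. With 1 library per group no difference could be tested: the 95% intervals below cover counting error only, not the spread between cultures. They are exact for levels and for ratios of 2 libraries, and normal on the log scale for ratios between 2 genes and for changes of a ratio.

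The interstitial matrix is built on collagen fibrils, and the proteins described here are its adhesive, regulatory and elastic components. Fibronectin is assembled into fibrils by integrins and guides collagen deposition. Small leucine-rich proteoglycans bind collagen fibrils and set their diameter, fibrillin microfibrils carry elastin and hold latent TGF-beta complexes, and matricellular proteins modulate adhesion and are known for their rise in wound repair. Dermal fibroblasts are a main source of these proteins in skin.

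Gene-assigned reads numbered 22082565 (High) and 21693030 (Low) for whole-cell RNA, and 25857770 and 27832061 for the pulldowns. The ribosomal RNAs of mitochondria, mt-Rnr1 with mt-Rnr2, made up 63.4% of the pulldown reads in High and 59.8% in Low, against 0.0926% and 0.0583% in whole-cell RNA. A count of 3 reads, the level that 0 reads still allows, equals 0.108 to 0.138 CPM (counts per 1000000 gene-assigned reads) in these libraries. All 10 fibroblast markers had reads in every library, with a summed level of 10061 and 11583 CPM in whole-cell RNA, and the marker lists of keratinocytes, endothelium, leukocytes, muscle, Schwann cells and melanocytes, and adipocytes each summed to 16.8 CPM or less in every library. Chondrocyte markers, which ear clippings can bring along, summed to 297 CPM in High and 208 CPM in Low whole-cell RNA, and to 118 and 148 CPM in the pulldowns. Of the 15 chondrocyte markers 10 to 12 had reads in each library: Matn1, Col11a2 and Snorc were at 0 in all 4, whereas Col2a1, the main cartilage collagen, had 1922 reads in High and 766 in Low whole-cell RNA, and Sox9, the chondrocyte transcription factor, had 3727 and 3219.

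The start regions of 3 genes are shown. Fmod had the highest whole-cell ratio of High to Low among the members that passed the level filter. Tnc was lower in High, though less so than Dcn and Fn1, for which no RefSeq window was matched. Bgn and Tnc each had opposite signs in the 2 kinds of library. Each run is the 150 bases before the annotated start in RefSeq, GRCm38.p6, 5′ to 3′ on the strand of the gene, at chr1:134037104-134037253 (+) for Fmod, chrX:73483451-73483600 (+) for Bgn and chr4:64047016-64047165 (-) for Tnc. Capitals mark matches to any of 4 motifs searched on both strands, the TATA box core (TATAAA), the AP-1 site (TGAGTCA), the CCAAT box and the GC box (GGGCGG).
Fmod: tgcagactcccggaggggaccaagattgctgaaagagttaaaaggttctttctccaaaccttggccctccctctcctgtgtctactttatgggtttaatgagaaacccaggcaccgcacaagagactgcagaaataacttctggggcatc
Bgn: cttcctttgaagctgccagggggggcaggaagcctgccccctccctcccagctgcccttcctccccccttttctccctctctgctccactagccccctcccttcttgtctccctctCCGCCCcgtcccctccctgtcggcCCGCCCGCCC
Tnc: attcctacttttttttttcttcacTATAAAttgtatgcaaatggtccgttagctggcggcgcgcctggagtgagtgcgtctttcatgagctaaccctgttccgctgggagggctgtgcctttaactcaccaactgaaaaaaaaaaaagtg
The Bgn run holds 3 GC boxes on the minus strand, 34, 10 and 6 bases before the start, the last 2 of them overlapping. The Tnc run holds a TATA core 126 bases before the start, and the Fmod run holds none of the motifs. RefSeq windows were matched for 6 of the 10 genes, Fmod, Bgn, Tnc, Postn, Fbn1 and Sparc, with 8 windows in all. In the 250 bases before the start, 3 of the 8 windows held a TATA core and 4 held a GC box, against 12.4% and 32.7% of the 32851 windows of all genes. The pair of Tnc windows overlaps and holds the same TATA core and the same GC box, so the matches belong to 2 and 3 of the 6 genes. No window of the 8 held a CCAAT box, which 33.8% of all windows hold, or an AP-1 site, which 4.46% hold. The inner start of Postn has a TATA core 26 bases upstream. These are letter matches, and the data hold no measurement of binding at these sites.

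Fibronectin was among the most abundant transcripts of these fibroblasts. Fn1 (ENSMUSG00000026193, chromosome 1, 71585473 to 71653280) had 694002 reads in High and 874838 in Low whole-cell RNA, second and first among all genes by reads, and 92205 and 85066 reads in the High and Low pulldowns, where it ranked 8 in both. That is 3.14% (3.14 to 3.15, exact binomial interval) of High and 4.03% (4.02 to 4.04) of Low whole-cell reads, and 0.357% and 0.306% of the pulldown reads. Together the 10 genes took 4.47% and 5.50% of whole-cell reads and 1.07% and 0.968% of pulldown reads. Without Fn1 the other 9 took 1.32% and 1.46%, then 0.714% and 0.663%. Fn1 thus made up most of the members' reads in whole-cell RNA and a smaller part in the pulldowns. Levels are not ranked between genes per length here, since transcript lengths were not used.

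**Figure D1:**
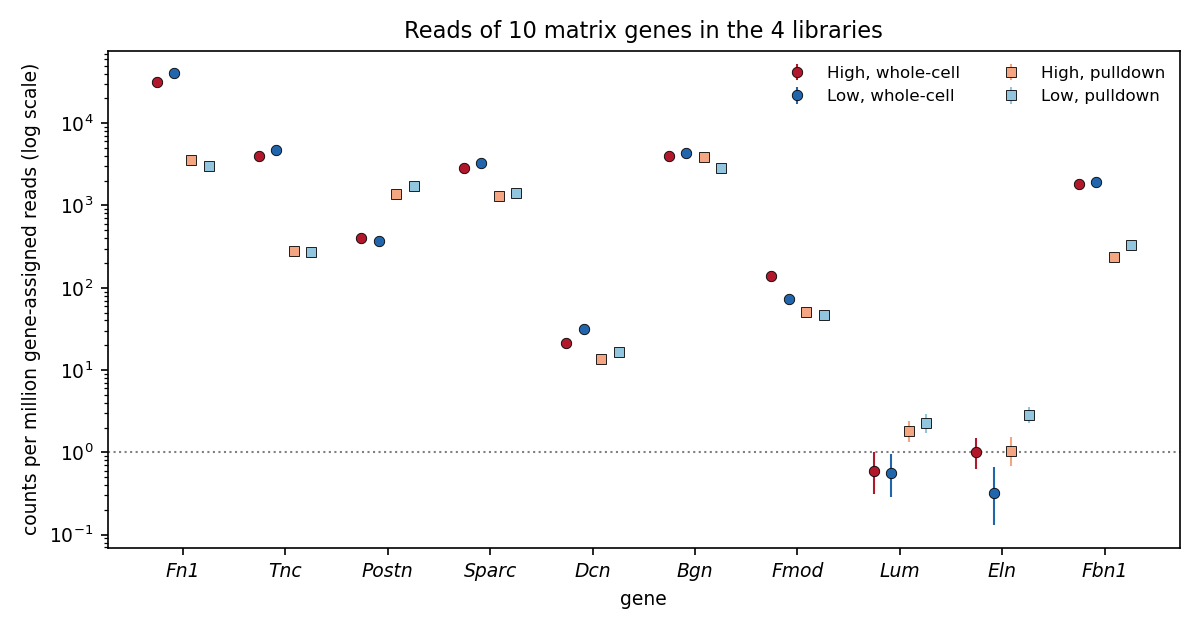
Level of each of the 10 matrix genes in CPM (log axis) in the 4 libraries, with exact 95% counting intervals that are mostly narrower than the points; the dotted line marks 1 CPM. The points of Fn1, Fbn1, Tnc, Sparc, Dcn, Fmod and Bgn sit lower in both pulldowns than in both whole-cell libraries. Those of Postn, Lum and Eln sit higher, and in High the differences of Bgn and Eln are small.

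In whole-cell RNA, the question was how matrix transcripts differ between AF357425-High and AF357425-Low fibroblasts. Fmod was 1.80-fold higher in High, Dcn 1.54-fold lower and Fn1 1.34-fold lower, while the other 5 measured genes differed by 1.23-fold (Tnc) or less. Libraries were scaled by TMM, a gene was measured where its mean was at least 1 CPM, and a gene counts as past a line when its whole interval lies beyond 2-fold, or beyond a lower line at a log2 difference of 0.32, which is a factor of 25% above equality. Of the 8 measured members none was past 2-fold, a line passed by 0.111% of all 13519 measured genes upwards and 0.133% downwards. Past the lower line were 1 member upwards (1.61% of all genes, 1.35% of those averaging 100 CPM or more) and 2 downwards (2.85% and 3.47%). The members' median log2 ratio was -0.21, with 2 above 0 and 6 below, beside a median of -0.01 over all measured genes.

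Fmod (ENSMUSG00000041559, chromosome 1, 134037254 to 134048280), which organises collagen fibrils and binds TGF-beta, stood at 137 CPM in High and 72.7 CPM in Low, from 3028 and 1576 reads. Its log2 ratio was 0.85 (0.76 to 0.94), above 98.8% of all measured genes and above 99.9% of the genes averaging 100 CPM or more. The chondrocyte markers measured in whole-cell RNA were higher in High as well. All 7 of the 15 that passed the level filter had ratios above 0, with a median of 0.84 and 2 past 2-fold. These were Col2a1 at 1.24 (1.12 to 1.36) and Cnmd, chondromodulin, at 2.73 (1.92 to 3.65), while Sox9, the largest part of the list's sum, had 0.12. Cnmd, at 4.48 CPM in High and 0.645 CPM in Low, passed the filter only through High. So did the marker Col9a3, at 1.58 and 0.784 CPM, so the count above 0 depends in part on the filter. Below the filter, Ucma had 14 reads in High and 28 in Low, and Hapln1 had 12 and 3. In the pulldown 6 of the 15 markers were measured, with a median of -0.12, 2 above 0 and 4 below. None of these was past the lower line of 0.32 there, and neither was Fmod, at 0.41 (0.30 to 0.52). The part of chondrocytes in the Fmod ratio was not tested. In bulk RNA, fewer cells of a type and less RNA per cell cannot be told apart. Dcn (ENSMUSG00000019929, chromosome 10, 97479500 to 97518163), a proteoglycan that decorates collagen fibrils, stood at 21.2 CPM in High and 31.3 CPM in Low, from 469 and 679 reads, a log2 ratio of -0.62 (-0.80 to -0.45). Of all measured genes 3.21% had a lower ratio than Dcn. These 2 proteoglycans therefore sat at opposite ends of the whole-cell comparison, and Bgn between them. Within a library, where no scaling enters, there were 6.46 Fmod reads per Dcn read in High and 2.32 in Low, a log2 difference of 1.48 (1.28 to 1.67).

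Fn1 stood at 31428 CPM in High and 40328 CPM in Low, a log2 ratio of -0.42 (-0.43 to -0.42). Of all measured genes 7.97% had a lower ratio, and of those with at least 100 CPM 2.41%. Tnc (ENSMUSG00000028364, chromosome 4, 63959785 to 64047015), an anti-adhesive glycoprotein of healing tissue, had 88029 and 101317 reads, 3986 CPM in High and 4670 CPM in Low, and a log2 ratio of -0.29 (-0.31 to -0.28). Sparc (ENSMUSG00000018593, chromosome 11, 55394159 to 55420080), a collagen-binding glycoprotein, had 62900 and 70748 reads and a ratio of -0.26 (-0.28 to -0.24). Bgn (ENSMUSG00000031375, chromosome X, 73483601 to 73495936), the close relative of decorin, had 89310 and 93718 reads and a ratio of -0.16 (-0.17 to -0.15). Fbn1 (ENSMUSG00000027204, chromosome 2, 125300594 to 125506485), the backbone of microfibrils, had 39843 and 41381 reads and a ratio of -0.15 (-0.17 to -0.13). For Tnc, Sparc, Bgn and Fbn1 the differences exceed counting error, but none is past the lower line and no replicate shows how far cultures vary. Postn (ENSMUSG00000027750, chromosome 3, 54359267 to 54391041), a matricellular protein of collagen-rich tissue, had 8876 and 8103 reads and a ratio of 0.04 (-0.00 to 0.08), an interval that includes no difference.

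Lum (ENSMUSG00000036446, chromosome 10, 97565501 to 97572703) and Eln (ENSMUSG00000029675, chromosome 5, 134702595 to 134747368) were too low in whole-cell RNA to pass the level filter. Lum, a keratan sulphate proteoglycan of collagen fibrils, had 13 reads in High and 12 in Low. Eln, the elastic core protein, had 22 and 7. The elastin scaffold gene Fbn1 thus had 1811 reads for each Eln read in High and 5912 in Low. At this depth a difference between the states in Lum was not detectable, and that in Eln rests on those 22 and 7 reads.

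**Figure D2:**
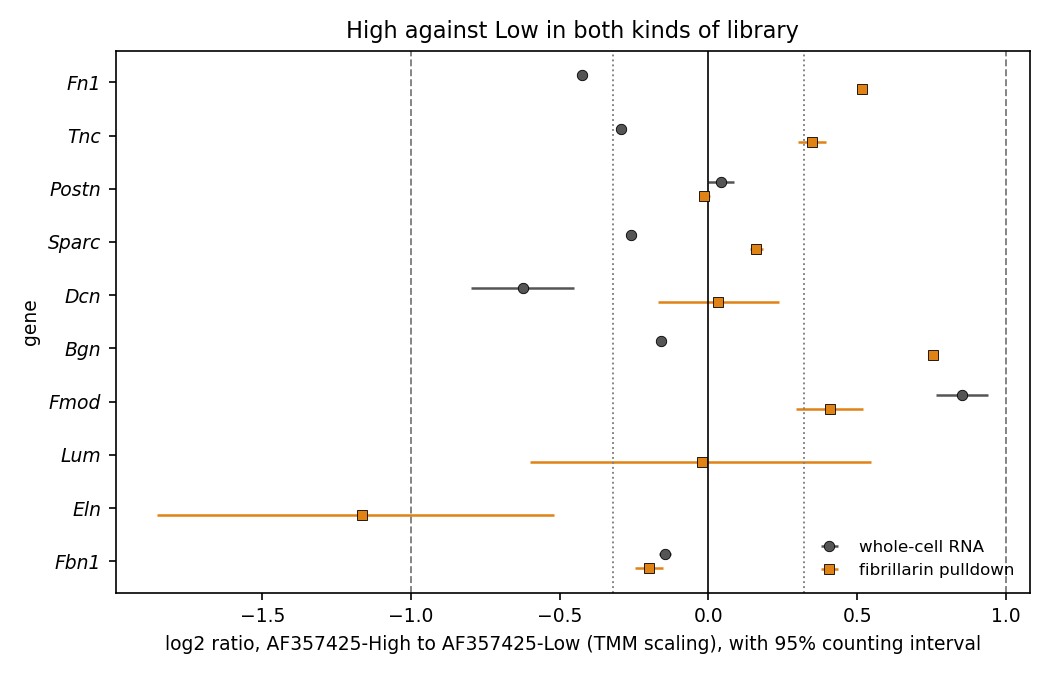
log2 ratio of High to Low for each matrix gene for both kinds of library, TMM-scaled, with exact 95% counting intervals; dashed lines mark 2-fold and dotted lines the lower line of 0.32. Fmod lies at 0.85 and Fn1 at -0.42 in whole-cell RNA, while in the pulldown Bgn lies at 0.75 and Fn1 at 0.52.

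**Figure D3:**
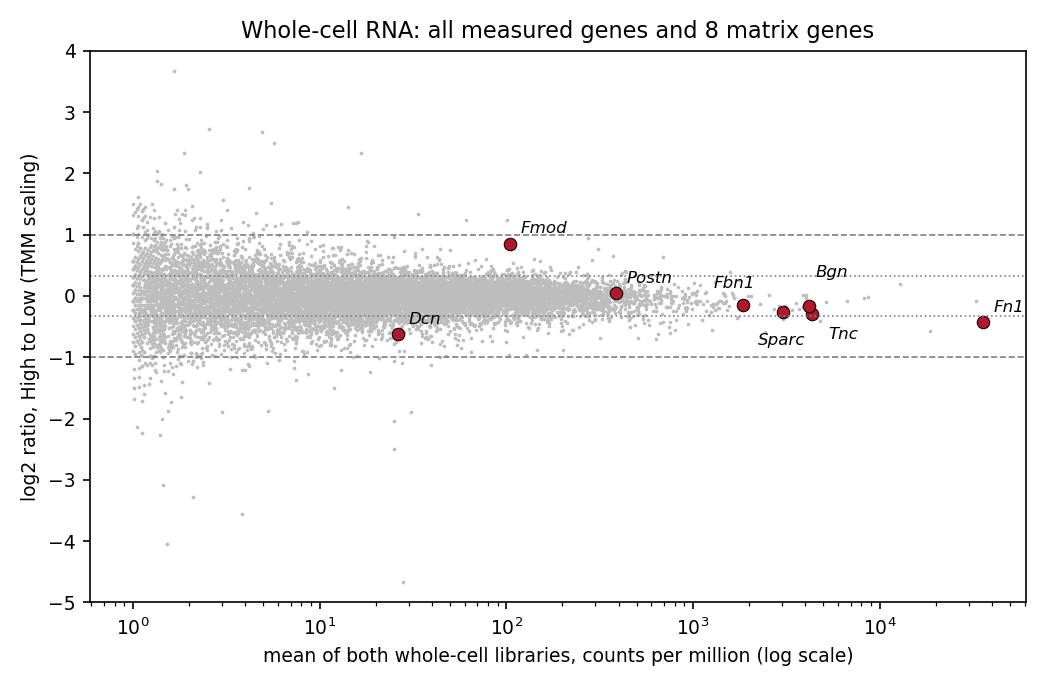
log2 ratio of High to Low against the mean level in CPM (log axis) for all 13519 measured genes of whole-cell RNA (grey) and the 8 measured matrix genes (red); dashed lines mark 2-fold and dotted lines the lower line of 0.32. Fmod, at a ratio of 0.85, stands away from the grey points of similar level, and Fn1 lies at the far right of the level axis.

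Among transcripts of the fibrillarin pulldowns, Bgn and Fn1 were higher in High and Eln was lower. Bgn had 100221 reads in High and 78504 in Low, 3876 and 2821 CPM, and a log2 ratio of 0.75 (0.74 to 0.77), 1.69-fold. Fn1 stood at 3566 and 3056 CPM, a ratio of 0.52 (0.50 to 0.53), 1.43-fold. Eln had 27 reads in High and 80 in Low, a ratio of -1.17 (-1.85 to -0.52). All 10 members were measured, and none was past 2-fold, a line that 3.43% of the 10736 measured genes passed upwards and 2.9% downwards. Past the lower line were 2 members upwards and 1 downwards, beside 14.8% and 15.4% of all genes and 21.9% and 12% of those averaging 100 CPM or more, so these counts lie near the background. The share of mt-Rnr1 and mt-Rnr2 differed between these 2 libraries, 63.4% in High and 59.8% in Low, and its part in the ratios was not tested. Scaled by library totals, every ratio is 0.29 lower on the log2 scale: Bgn then had 0.46 and Fn1 0.22. Past the lower line were then 1 member upwards and 2 downwards, beside 765 and 3306 of the 10736 measured genes.

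The remaining genes lay closer to equality in the pulldown under TMM scaling. Fmod, with 1300 and 1294 reads, had a ratio of 0.41 (0.30 to 0.52), and Tnc, with 7310 and 7582 reads, had 0.35 (0.30 to 0.39). Both ratios stayed above 0 with library totals, at 0.11 and 0.05. Sparc, with 33453 and 39514 reads, had 0.16 (0.14 to 0.18), which turned to -0.13 with library totals. Fbn1, with 6164 and 9341 reads, had -0.20 (-0.25 to -0.15). Postn, with 35704 and 47579 reads, had -0.01 (-0.03 to 0.01). Dcn had 355 and 458 reads and a ratio of 0.03 (-0.17 to 0.24), and Lum 47 and 63 reads and a ratio of -0.02 (-0.60 to 0.55). The intervals of Postn, Dcn and Lum include no difference under TMM. With library totals Fbn1 was at -0.49 (-0.54 to -0.45), past the lower line, Postn at -0.31 (-0.33 to -0.29) and Dcn at -0.26 (-0.47 to -0.06), all 3 below 0. The members' median was 0.10 with TMM, with 6 above 0 and 4 below, and -0.20 with library totals, beside -0.01 and -0.31 for all measured genes.

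Ratios between 2 members inside a library do not depend on scaling. Fn1 to Fbn1 was 17.4 in High and 21.1 in Low whole-cell RNA, and 15.0 and 9.11 in the pulldowns, so that High had the smaller ratio in whole-cell RNA and the larger in the pulldown. Postn to Tnc went the other way: 0.101 in High and 0.0800 in Low whole-cell RNA, then 4.88 and 6.28 in the pulldowns. Bgn to Fn1 was larger in High in both kinds of library, with log2 differences of 0.26 (0.25 to 0.28) for whole-cell RNA and 0.24 (0.22 to 0.26) for the pulldown. Fmod to Bgn was larger in High in whole-cell RNA, by 1.01 (0.92 to 1.10), and smaller in the pulldown, by -0.35 (-0.46 to -0.23).

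Pulldown-to-whole-cell ratios differed widely among the matrix genes. No control pulldown is among the libraries, so recovery that does not depend on fibrillarin was not measured. Set against whole-cell RNA by library totals, Postn was 3.44-fold higher in the pulldown of High (log2 1.78, 1.75 to 1.81) and 4.58-fold higher in that of Low (2.19, 2.16 to 2.23), at 1381 and 1710 CPM against 402 and 374 CPM. That placed Postn above 97.9% of measured genes in High and 98.4% in Low. Tnc stood at 283 and 272 CPM in the pulldowns, 14.1-fold and 17.1-fold below whole-cell RNA, log2 ratios of -3.82 and -4.10. These matricellular genes thus lay far apart, and so did a pair that carries the elastic fibre: Fbn1 was 7.57-fold and 5.68-fold lower in the pulldown, whereas Eln had 27 reads against 22 in High and 80 against 7 in Low.

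Fn1 was 8.81-fold lower in the pulldown of High and 13.2-fold lower in that of Low. Sparc had log2 ratios of -1.14 and -1.20, and Fmod -1.45 and -0.64. Bgn was near equal in High, -0.06 (-0.07 to -0.05), and at -0.62 (-0.63 to -0.60) in Low. Dcn had -0.63 (-0.83 to -0.43) and -0.93 (-1.10 to -0.75). Lum had 1.63 (0.72 to 2.64) and 2.03 (1.13 to 3.06), from 63 reads or fewer in each library. Measured against the median of all genes, -2.15 in High and -1.75 in Low, the proteoglycans lay above it in both states, and Fn1, Tnc and Fbn1 lay below.

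Past 2-fold, 1 member was higher in the pulldown of High and 5 were lower, beside 2.41% and 74.1% of 12773 measured genes. In Low 3 were higher and 4 lower, beside 2.58% and 62.4% of 12774 genes. Among the higher in Low, Lum was at 0.553 CPM in whole-cell RNA and 2.26 CPM in the pulldown, and Eln at 0.323 and 2.87 CPM. Both passed the level filter only through the pulldown. Leaving mt-Rnr1 and mt-Rnr2 out of the totals raises every log2 ratio by 1.45 in High and 1.31 in Low, and TMM scaling raises it by 1.84 and 1.43. With TMM 5 members were higher and 3 lower in High. Postn, Lum and Eln stayed above 0 and Fn1, Tnc and Fbn1 below 0 under the 3 scalings run, while Dcn, Bgn, Fmod and Sparc changed sign. By library totals Eln in High was at 0.07 (-0.80 to 0.95), an interval that includes no difference.

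**Figure D4:**
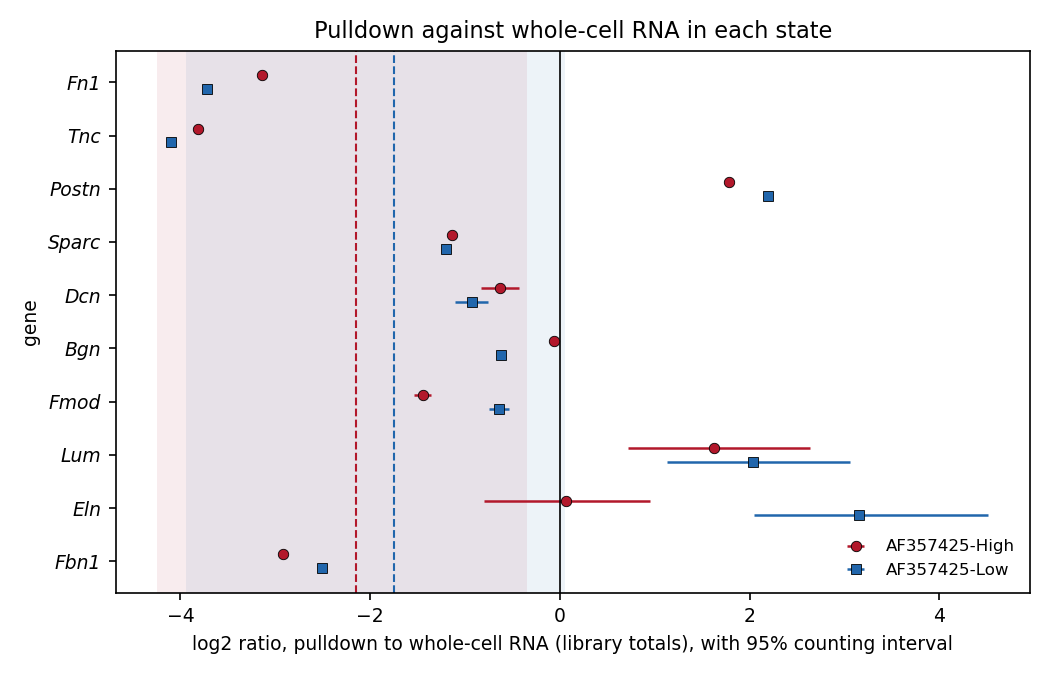
log2 ratio of pulldown to whole-cell RNA for each matrix gene in High and in Low, by library totals, with exact 95% counting intervals; dashed lines mark the median of all measured genes in each state (-2.15 and -1.75), and the shading runs from their lower to their upper decile (-4.24 to -0.35 in High, -3.94 to 0.06 in Low). Postn lies at 1.78 and 2.19, and Tnc at -3.82 and -4.10.

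The pulldown-to-whole-cell ratio itself was then compared between the states, for the 9 members with at least 10 reads in each library. It was higher in High than in Low for Fn1, by 0.94 (0.93 to 0.96) on the log2 scale, for Bgn by 0.91 (0.89 to 0.93), for Dcn by 0.66 (0.40 to 0.92), for Tnc by 0.64 (0.59 to 0.69) and for Sparc by 0.42 (0.39 to 0.45). Fmod had -0.44 (-0.59 to -0.30). Postn had -0.05 (-0.102 to -0.007) and Fbn1 -0.05 (-0.104 to -0.003). Lum also had -0.05, but with an interval of -1.30 to 1.21, too wide to show whether it differed. Past the lower line 5 of 9 were higher and 0 lower, beside 13.9% and 12.7% of 11356 genes, and 0 were past 2-fold, beside 2.65% and 1.66%. With library totals 2 were higher past the lower line (Fn1 and Bgn) and 3 lower (Fmod at -0.80, Fbn1 and Postn at -0.41 each), beside 5.50% and 30.5% of genes. These values combine the whole-cell and pulldown ratios given above and are not separate evidence, and no test of the difference was possible with 1 library per group.

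**Figure D5:**
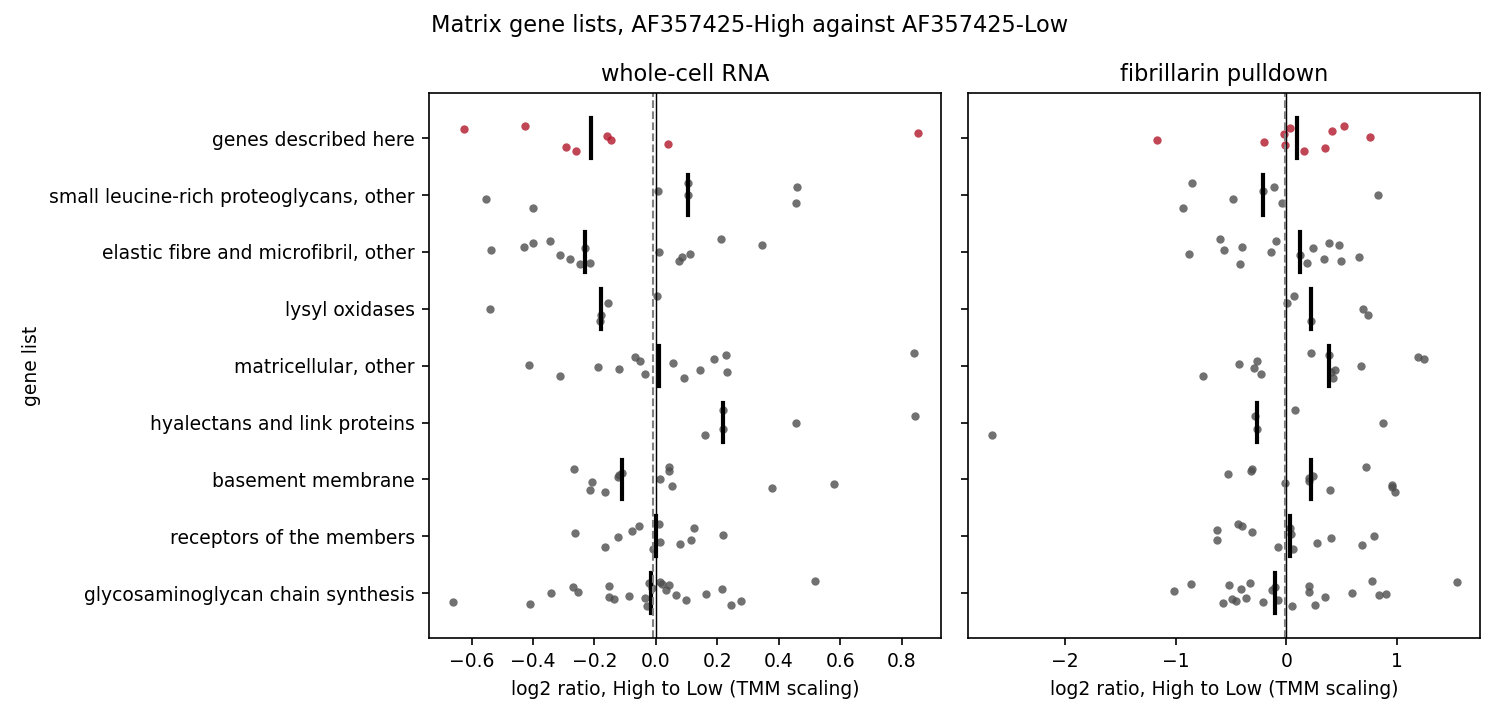
log2 ratio of High to Low for the matrix genes described here and for 8 lists of genes grouped by role, in each kind of library, TMM-scaled; each point is a measured gene the bar is the list's median, and the dashed line is the median of all measured genes. Whole-cell points lie within 1 of 0 in each list, and the pulldown points spread further, with Has3 at -2.66 (6 reads in High, 50 in Low).

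Genes that work with these proteins were read from 8 lists grouped by role, 125 genes in all. In whole-cell RNA no listed gene was past 2-fold. Other small leucine-rich proteoglycans had a median log2 ratio of 0.10 (7 of 12 measured), from Podn, podocan, at -0.55 to Ogn, osteoglycin, at 0.46. Other elastic fibre genes had -0.23 (15 of 18 measured), from the microfibril protein Mfap2 at -0.54 to fibulin-5, Fbln5, which guides elastin assembly, at 0.35. Mfap2 had 33 and 45 reads, and its interval includes no difference. The lysyl oxidases, which cross-link elastin and collagen, had -0.18 over 5, from Loxl2 at -0.54 to Lox at 0.00. Other matricellular genes had 0.01 (14 of 20), from Thbs4 at -0.41 to the calcium-binding Smoc1 at 0.84. The interval of Thbs4, from 44 and 55 reads, includes no difference.

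Hyaluronan synthases, hyalectans and link proteins had a whole-cell median of 0.22 (5 of 11 measured), all 5 above 0, from Has2, a hyaluronan synthase, at 0.16 to Acan, the cartilage proteoglycan aggrecan, at 0.84 from 42 and 22 reads. Basement membrane genes had -0.11 (13 of 15), from Lama2 at -0.27 to Lamc3 at 0.58, both laminin chains. Lamc3 rests on 35 and 22 reads, with an interval of -0.23 to 1.42. Receptors of the matrix proteins had 0.00 (12 of 15), from integrin beta-1, Itgb1, at -0.26 to integrin beta-3, Itgb3, at 0.22. Enzymes of glycosaminoglycan chain synthesis had -0.02 (24 of 29), from the sulphotransferase Chst1 at -0.66 to the chain-starting xylosyltransferase Xylt1 at 0.52, and 0.05 with library totals. Past the lower line 2 listed elastic fibre genes were lower, and the other lists had 1 or 0 in either direction. Of all measured genes 1.61% passed it upwards and 2.85% downwards.

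In the pulldown 3 listed genes were past 2-fold, a line that 3.43% of all measured genes passed upwards and 2.9% downwards. Thrombospondin-1, Thbs1, a matricellular activator of TGF-beta, was higher in High at 1.24 (1.22 to 1.26), and Xylt2 at 1.53 (1.05 to 2.04). The hyaluronan synthase Has3 was lower at -2.66 (-4.17 to -1.44), from 6 reads in High and 50 in Low. At 0.232 CPM in High and 1.80 CPM in Low, Has3 passed the level filter only through Low. With library totals Thbs1 was at 0.94 and Xylt2 at 1.24, and neither was past 2-fold. The other ends of the lists in the pulldown were Ecm2 at -0.94 and Prelp at 0.83, Mfap5 at -0.88 and Ltbp2 at 0.65, Loxl1 at 0.00 and Loxl3 at 0.74, Ccn4 at -0.76, Has1 at 0.87, Lama5 at -0.53 and agrin, Agrn, at 0.98, Itga9 at -0.63 and Itgb3 at 0.79, and Chsy3 at -1.01. List medians were 0.38 for other matricellular genes, 0.22 for lysyl oxidases and for basement membrane, 0.12 for elastic fibre genes, 0.03 for receptors, -0.10 for chain synthesis, -0.21 for other small leucine-rich proteoglycans and -0.26 for hyalectans. With library totals the medians of the lysyl oxidases (-0.07), basement membrane (-0.07), elastic fibre genes (-0.17) and receptors (-0.26) were below 0.

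Most of the other small leucine-rich proteoglycans measured had pulldown-to-whole-cell ratios above those of most genes. Against whole-cell RNA their median log2 ratio was 0.70 in High and 1.74 in Low (8 of 12 measured), beside -2.15 and -1.75 for all genes. Past 2-fold 3 in High and 4 in Low were higher, beside 2.41% and 2.58% of all genes. Lower were 0 and 1, beside 74.1% and 62.4%, the 1 being Podnl1 at -2.47 (-3.71 to -1.41) in Low. Ogn was at 122 and 161 CPM in the pulldowns and 24.0 and 16.6 CPM in whole-cell RNA, log2 ratios of 2.35 and 3.28. Asporin, Aspn, was at 32.4 and 71.5 CPM against 13.3 and 11.8 CPM. Osteomodulin, Omd, had log2 ratios of 1.55 and 2.13, and Ecm2 0.91 and 1.81. These 4 genes lie inside the span of Cenpp on chromosome 13, and no source used here states whether counting used strand, so reads of overlapping genes may not be told apart. Cenpp itself had 32 to 44 reads in each library, fewer than Ogn and Aspn.

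The chromosomal neighbours of Dcn, Lum, Fmod and Bgn were read within 500 kb on each side. Dcn and Lum share a proteoglycan cluster on chromosome 10 with Kera, which had 0 reads in all 4 libraries, and Epyc, which had 3 and 2 reads in High and Low whole-cell RNA and 2 and 16 in the pulldowns. Around Fmod 11 of 27 genes were measured in whole-cell RNA, with ratios from -0.23 to 0.52, the highest in Chil1, so the ratio of Fmod, 0.85, lay above them all. Its family members Prelp and Optc are among these neighbours. In whole-cell RNA Prelp had 0.11, with 0.83 in the pulldown, and Optc had 23 and 17 whole-cell reads. Around Bgn 13 of 44 genes were measured in the pulldown against whole-cell RNA of High, from -5.47 to -1.27, and 12 in Low, from -5.16 to -1.08, and Bgn, at -0.06 and -0.62, lay above all of them.

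Genes with the pattern closest to Fn1 and Fmod were sought among 2072 genes with at least 100 CPM in whole-cell RNA, by Euclidean distance over 3 log2 ratios (High to Low in each kind of library, and the mean of pulldown to whole-cell). For Fn1 they were Mfge8 at a distance of 0.0917, Ak1, Ecm1, Pxn and Sidt2, the last at 0.237. For Fmod the nearest, Thrap3, was at 0.307, followed by Zc3h7a, Susd6, Ttc39b and Tug1, the last at 0.506. No other member was among the 5 nearest of either. Of the 10 members, 7 overlap no other RefSeq gene, while Eln, Postn and Tnc each overlap a long non-coding RNA, of which the partner of Tnc, 8030451A03Rik, had 10 to 83 reads per library and that of Eln, Gm30003, had 1 or 0. The partner of Postn, Gm31095, was paired with no counted gene ID, so its reads are not known.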

How the data were processed

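Per the submitters' processing notes, the tools were cutadapt 2.4, STAR 2.6.0c, HTSeq 0.9.1 and StringTie 1.3.4 with genome build GRCm38. No source used here gives their settings, the annotation or the strand option. Deposited by the authors were raw read counts per Ensembl gene, 1 table for whole-cell RNA and 1 for the pulldowns. Rows that name no gene were left out of totals: of the counted fragments, 45.0% (High) and 43.8% (Low) for whole-cell RNA, then 50.0% and 45.4% for the pulldowns. Symbols were paired for 55450 of 55536 IDs.

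Counts were set between states with TMM factors (edgeR 4.0.16) and between pulldown and whole-cell RNA with library totals. Intervals are exact Clopper-Pearson 95% intervals of 2 counts, or normal intervals on the log scale for ratios of ratios and between members. Genes needed a mean of 1 CPM, or 10 reads in each library for ratios of ratios. The scripts were tested on simulated data. Alternatives were library totals, DESeq2 1.42.0 size factors, totals without the 20 most abundant genes or without mt-Rnr1 and mt-Rnr2, stricter or no filters, and other denominators.

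Named genes are the 10 members, the highest and lowest gene of each role list in each High to Low comparison, those past 2-fold, the 5 genes nearest to Fn1 and Fmod, and the proteoglycan neighbours. Aspn, Omd, Podnl1, Cenpp, Chil1 and the chondrocyte markers were named after their values were seen. The members, lists and tests were chosen with earlier results of these data known.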

Additional observations from a re-analysis of the deposited data

Results flagged for a closer look

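For 4 genes the whole interval of the High to Low ratio lay below 0 in whole-cell RNA and above 0 in the pulldown, and the difference was not tested, since each group has 1 library. From Low to High, the ratio of pulldown to whole-cell level differed by 0.94 for Fn1, 0.91 for Bgn, 0.64 for Tnc and 0.42 for Sparc on the log2 scale. Dcn also had opposite signs, -0.62 and 0.03, but its pulldown interval included 0. With library totals the 4 changes were 0.58, 0.55, 0.28 and 0.06, and the pulldown ratio of Sparc then fell below 0, as in whole-cell RNA.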

How the results depend on the processing

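No paired analysis was possible because each group has 1 library, and for the same reason no replicate could be left out. Between states, with a mean of at least 5 CPM 7 genes were higher and 8 lower past 2-fold in whole-cell RNA, and with no filter 35 and 29. In the pulldown these were 238 and 608 with library totals, 188 and 114 at 5 CPM, and 932 and 756 with no filter. Past the lower line in the pulldown, members numbered 1 higher and 2 lower with library totals, beside 765 and 3306 of 10736 genes. At 5 CPM 0 members were lower, since Eln leaves. Role list genes past 2-fold in the pulldown were 0 higher and 2 lower with library totals, and 1 and 0 at 5 CPM. Pulldown against whole-cell RNA of High had 1682 genes higher and 2884 lower past 2-fold with TMM, 1065 and 4149 without mt-Rnr1 and mt-Rnr2, 168 higher at 5 CPM and 667 with no filter. Members there numbered 5 higher and 3 lower with TMM, and 3 and 3 without mt-Rnr1 and mt-Rnr2. In Low the genes were 1731 and 3365 with TMM, 1508 and 3651 without these RNAs, 182 higher at 5 CPM, with 1 member, and 693 with no filter. Fmod in High turned to 0.40 with TMM and 0.0029 without these RNAs, and Sparc to 0.71 and 0.31 in High and 0.23 and 0.11 in Low. For the change of the ratio, library totals gave 135 higher and 578 lower past 2-fold, and at least 100 reads in each library gave 136 and 53. Members past the lower line there were 2 higher and 3 lower with library totals, and 1 lower, Fmod, with DESeq2 size factors. The members' share of protein-coding reads was 4.92% and 6.09% in High and Low whole-cell RNA and 3.74% and 2.96% in the pulldowns, and 2.93% and 2.41% of pulldown reads without mt-Rnr1 and mt-Rnr2. Against the sum of the other members without Fn1, 4 had a lower part in High whole-cell RNA. The stricter filters test fewer genes and the scalings shift every ratio alike. The signs of the 8 members measured in whole-cell RNA between states were kept under the settings run. Depth limits Lum and Eln, with 80 reads or fewer in each library.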

Other observations

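Basement membrane genes lay near the background in their pulldown-to-whole-cell log2 ratios by library totals, with medians of -2.11 in High and -1.83 in Low beside -2.15 and -1.75 for all genes. All 12 measured were below 0, as were 93.2% and 89.2% of all genes. The lowest was perlecan, Hspg2, at -5.17 and -5.42, from 56684 and 61733 whole-cell reads and 1838 and 1848 pulldown reads. Among other matricellular genes Ccn3 stood at 1.92 (1.62 to 2.23) in High and 2.47 (2.18 to 2.78) in Low, from 110 and 106 whole-cell reads and 487 and 755 pulldown reads. The integrin chain Itga4 was the highest of the receptors, at 1.52 (0.72 to 2.39) and 2.23 (1.48 to 3.06). It had 17 whole-cell reads in each state and 57 and 102 pulldown reads. At 0.770 and 0.784 CPM in whole-cell RNA, Itga4 passed the level filter only through the pulldown. Hspg2, Ccn3 and Itga4 were chosen after their values were seen.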
